A study of Mus musculus with 6 samples.

Results

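The genes described here are the ligand colony stimulating factor 1 (Csf1), its receptor Csf1r, and 8 genes that mark macrophages: Adgre1, Cd68, Lyz2, C1qa, C1qb, C1qc, Mrc1 and Cd163. They were chosen by name, as the entries of the deposited gene table with these symbols, and make up 10 of its 23358 entries. Adgre1, the F4/80 antigen, is listed there under its older symbol Emr1. RNA was sequenced from 6 spontaneous soft tissue tumors, each from a different female mouse. All 6 mice carried NT3, a transgene for NF-κB inducing kinase (NIK) without its TRAF3-binding domain, which Cre recombinase switches on by removing a stop cassette. In 3 mice, Osx-Cre;NT3, the Cre was driven by the Osterix promoter and held off by doxycycline chow until weaning. In the other 3 mice, FSP1-Cre;NT3, it was driven by the promoter of S100a4 (FSP1), which is active in fibroblasts. The authors point out that both drivers can also act in blood cell lineages, to which macrophages belong. Tumors are named here by mouse number. The Osx-Cre;NT3 tumors 13, 18 and 25 all grew on the trunk, with latencies of 150, 168 and 115 days. Among the FSP1-Cre;NT3 tumors, tumors 27 and 36 were perineal with latencies of 101 and 52 days, and tumor 29 was on the trunk with 72 days. NT3 mice were C57Bl/6J, Osx-Cre mice mixed C57Bl/6J and CD1, and FSP1-Cre mice FVB/n, so line, site, latency and strain background cannot be told apart fully in these tumors. RNA integrity also differed by line, with a lower average score reported for the Osx-Cre;NT3 tumors. By staining, the authors saw more CD45-positive infiltrate in FSP1-Cre;NT3 tumors, which they ascribe most likely to ulceration. Before sequencing, the authors screened samples by qPCR for low levels of hemoglobin genes and Cd68, so the level of a gene described here took part in choosing the tumors.

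Macrophages are tissue phagocytes that depend on signaling through the CSF1 receptor, a receptor tyrosine kinase, for survival and proliferation. Its ligand CSF1 is secreted or displayed by stromal, endothelial and tumor cells, and interleukin 34 (Il34) is an alternative ligand of the same receptor. Genes shared by most macrophages, such as those of the C1q complement subunits, are distinguished from genes like Mrc1 and Cd163, which mark macrophages of particular tissues and states.

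The total counts were from 51824408 to 163297772 per tumor, and the counts of the 10 genes from 114 for Cd163 in tumor 13 to 202498 for Lyz2 in tumor 18, so that the number of tumors rather than depth limits the precision. Levels are given in CPM, in which each count is divided by its library's TMM-scaled size, so that tumors can be compared. Besides fibroblast genes, with a summed level of 8 genes from 5261 to 15189 CPM, the tumors held RNA of keratinocyte genes, with Krt5 at a lowest level of 2591 CPM (tumor 36) and a highest of 6087 CPM (tumor 13). Tumor 36 stood apart from the others in simple epithelium genes, whose 4 members summed to 4263 CPM there and to between 565 and 1168 CPM in the others, and the DESeq2 calls named below that were lost without it are given as such. All 10 genes had counts above 0 in every tumor. In bulk tissue, fewer macrophages and less RNA per macrophage cannot be told apart.

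Levels of different genes were compared per length, as RPKM, in which counts are divided by the length of the gene and the size of the library. Lyz2, which encodes the secreted lysozyme of myeloid cells, was the most abundant, with a mean of 822 ± 416 RPKM (SD, n = 6 tumors), which ranked it at position 83 of all entries. The 3 C1q genes followed with 233 ± 79.2 RPKM for C1qb, 220 ± 84.8 RPKM for C1qa and 171 ± 50.8 RPKM for C1qc. Cd68 had 42.9 ± 11.6 RPKM, Csf1r 33.1 ± 7.45 RPKM and Adgre1 16.3 ± 3.62 RPKM. Lowest were Csf1 with 12.3 ± 5.28 RPKM, Mrc1 with 12.3 ± 13.5 RPKM and Cd163 with 2.93 ± 3.90 RPKM. In this order, Lyz2 was above C1qb, C1qa above C1qc, C1qc above Cd68, Csf1r above Adgre1 and Mrc1 above Cd163 in 6 of 6 tumors. The remaining neighbors changed places between tumors: C1qb was above C1qa in 5, Cd68 above Csf1r in 5, Csf1 above Mrc1 in 4 and Adgre1 above Csf1 in 3 of the 6 tumors. The RNA of the receptor was thus at a higher level per length than that of its ligand in all 6 tumors, with a ratio of Csf1 to Csf1r from 0.166 in tumor 18 to 0.587 in tumor 25.

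The genes also differed in how much they varied. Across the 6 tumors the standard deviation of log2 CPM was 0.31 for Csf1r and 0.34 for Adgre1, below the median of 0.43 for the 14246 genes with a mean of at least 1 CPM. Of those genes, 31.1% varied less than Csf1r. The standard deviation was 1.50 for Mrc1 and 1.59 for Cd163, and 5.38% and 4.93% of those genes varied more. The pair that moved most closely together was C1qb and C1qc, whose log2 ratio had a standard deviation of 0.09, followed by Cd68 and C1qc with 0.14. The pair that diverged most was Lyz2 and Cd163, with 2.14.

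**Figure D1:**
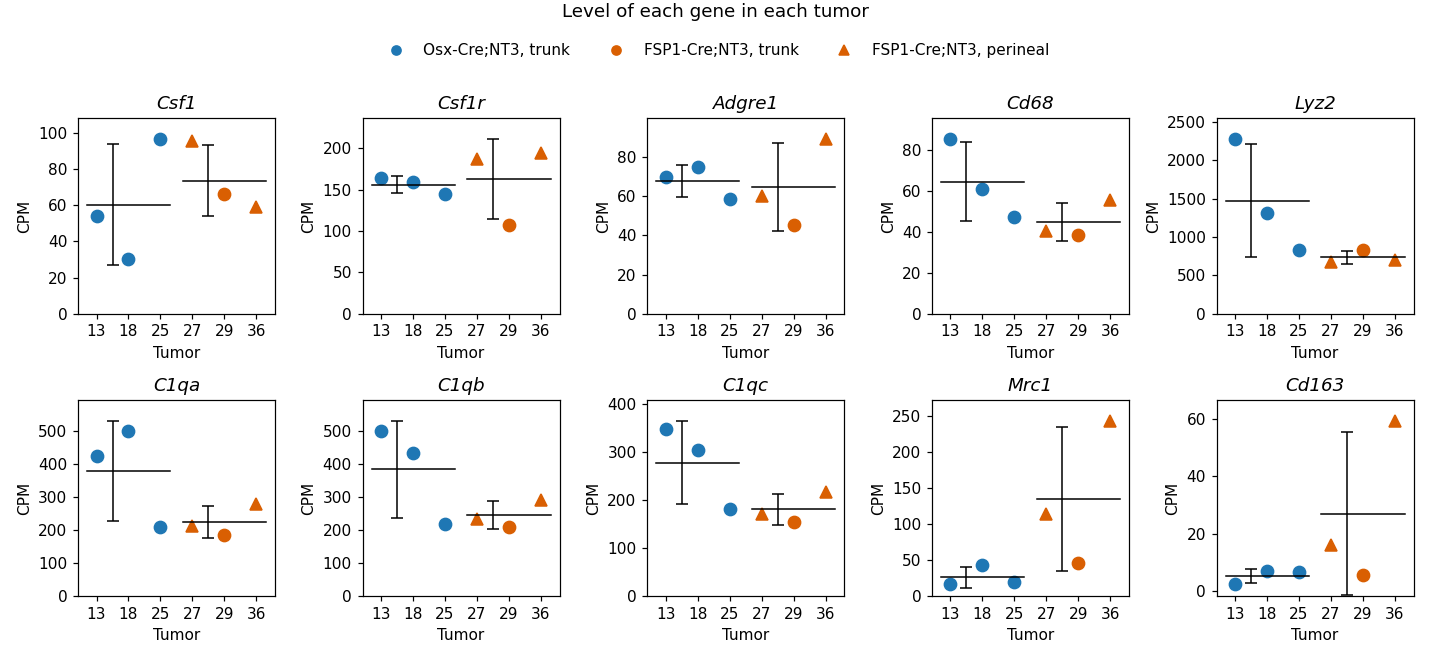
Level of each gene in CPM (vertical axis, 1 panel per gene) in each tumor (horizontal axis, by mouse number). Lines are the mean and error bars the SD of the 3 tumors of a line. Csf1r and Adgre1 vary least of the 10 genes, the C1q genes and Lyz2 are highest in tumors 13 and 18, and Mrc1 and Cd163 are highest in tumor 36, then in tumor 27.

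Csf1 (chr3:107741048-107760469, mm10), the ligand, had 54.3, 30.2 and 96.6 CPM in Osx-Cre;NT3 tumors 13, 18 and 25, and 95.7, 66.2 and 59.0 CPM in FSP1-Cre;NT3 tumors 27, 29 and 36. Tumor 18 was lowest and tumor 25 highest, both of the same line, and the lines overlapped. The means were 60.4 ± 33.6 CPM in Osx-Cre;NT3 and 73.7 ± 19.5 CPM in FSP1-Cre;NT3 tumors (SD, n = 3 each), which is 0.29 ± 0.43 (SE) on the log2 scale (adjusted p = 0.791) in edgeR's quasi-likelihood test, and the sign turned without tumor 18 (-0.039). Perineal over trunk tumors gave 0.32 ± 0.44 with an adjusted p of 0.806, and -0.087 without tumor 27. The 250 bases before the start of Csf1 are shown because NIK acts through NF-κB and this window holds a match to the NF-κB consensus, which begins 154 bases before the start. The sequence is RefSeq's, build GRCm38.p6, chr3:107760470-107760719, minus strand, written 5′ to 3′ along the gene, with the match in capitals.
Csf1: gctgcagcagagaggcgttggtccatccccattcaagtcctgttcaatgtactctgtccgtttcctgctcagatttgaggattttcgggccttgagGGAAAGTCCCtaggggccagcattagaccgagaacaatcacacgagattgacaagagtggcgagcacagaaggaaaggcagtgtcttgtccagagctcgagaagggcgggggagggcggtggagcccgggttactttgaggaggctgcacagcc
Of 32851 windows of this length before RefSeq starts, 3.90% held a match to this consensus on either strand. The match is a description of the letters, and binding was not measured.

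Csf1r, the receptor on chromosome 18, had 163.8, 159.8 and 144.2 CPM in the Osx-Cre;NT3 tumors 13, 18 and 25, and 186.7, 107.8 and 194.7 CPM in the FSP1-Cre;NT3 tumors 27, 29 and 36. The 3 Osx-Cre;NT3 values lay inside the range of the FSP1-Cre;NT3 tumors, where trunk tumor 29 was lowest of all. The means of 155.9 ± 10.4 and 163.1 ± 48.0 CPM (SD, n = 3 each) differed by a log2 fold change of 0.06 ± 0.26 (adjusted p = 0.926), and its sign changed without tumor 25, 27 or 36 and within trunk tumors (-0.54). By site, both perineal tumors were above all 4 trunk tumors, with a log2 fold change of 0.40 ± 0.24 (adjusted p = 0.566). Exons of Csf1r overlap those of Hmgxb3 on the other strand in GENCODE M21. Since the strandedness of the counting is not given in the sources used here, reads of the overlap could have been counted for either gene.

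The alternative ligand Il34 was lower than Csf1, with a mean of 5.09 RPKM, and had 9.65, 11.7 and 5.69 CPM in the Osx-Cre;NT3 and 14.2, 13.6 and 14.9 CPM in the FSP1-Cre;NT3 tumors. All 3 FSP1-Cre;NT3 tumors were above all 3 Osx-Cre;NT3 tumors, as was the case for 9.03% of all genes. The fitted log2 difference of Il34 was 0.66 ± 0.32 (adjusted p = 0.471). Csf2, which encodes granulocyte-macrophage colony stimulating factor, was at most 1.23 CPM, and its receptor subunit Csf2ra ranged from 24.7 to 40.7 CPM. The common receptor subunit Csf2rb was lowest in tumor 36 (178 CPM) and highest in tumor 25 (492 CPM), and its paralog Csf2rb2, with which it can share reads, from 102 to 314 CPM. Csf3, which encodes granulocyte colony stimulating factor, was 9.67 CPM in tumor 27 and at most 1.20 CPM in the others. Its receptor Csf3r had 19.4 and 24.2 CPM in perineal tumors 27 and 36 and from 9.12 to 11.7 CPM in the trunk tumors, a log2 fold change of 1.07 ± 0.25 between sites. Both perineal tumors were above all trunk tumors for Csf3r, as was the case for 10.3% of all genes. edgeR did not call it (adjusted p = 0.263), whereas DESeq2 did (adjusted p = 0.0117), where it called 4.1% of all genes. That call was lost without tumor 36 (0.87, adjusted p = 1.00) or tumor 13 (adjusted p = 0.0564). Of the 7 other factors and receptors, 0 passed an adjusted p of 0.05 with edgeR in either comparison. DESeq2 called 0 of the 7 between lines and 1, Csf3r, between sites. The median log2 fold change was 0.38 between lines and 0.42 between sites.

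The 5 genes whose profiles over the 6 tumors were nearest to that of Csf1r, among 14245 genes, were Lcp2, Sla, Nckap1l, Vav1 and Myo1f, with root mean square distances from 0.07 to 0.09 on the log2 scale after centering on each gene's mean. Lcp2 and Vav1 encode signaling proteins and Nckap1l a regulator of actin in blood cells. Among the members, Adgre1 was nearest to Csf1r, at position 58, while Csf1 was at position 10099. With library sizes alone the same 5 genes were nearest, and with Pearson correlation as the measure 3 of them were. The genes nearest to Csf1 were Tln1, Maml1, Phf2, Zfp697 and Atg2b, at distances from 0.08 to 0.12, of which 1 was kept with Pearson correlation. Adgre1 at position 8546 and Cd68 at position 9959 were far from Csf1 in this order, and 0 members were among its 100 nearest genes. These likenesses rest on 6 tumors and are descriptions.

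Adgre1 (chr17:57358686-57483529), an adhesion receptor that is the classical surface marker of mouse macrophages, had 70.0, 74.7 and 58.6 CPM in Osx-Cre;NT3 tumors 13, 18 and 25 and 59.9, 45.2 and 89.3 CPM in FSP1-Cre;NT3 tumors 27, 29 and 36. The Osx-Cre;NT3 values lay inside the range of the FSP1-Cre;NT3 tumors. The log2 fold change was -0.06 ± 0.28 between lines (adjusted p = 0.932), with the opposite sign when library sizes alone were used (0.044), a scaling that moved the median of all genes by 0.11. Between sites it was 0.26 ± 0.28 (adjusted p = 0.738), and -0.054 without tumor 36.

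Cd68 (chr11:69664371-69666062), a glycoprotein of late endosomes and lysosomes, had 85.3, 61.1 and 47.1 CPM in the Osx-Cre;NT3 tumors and 40.4, 38.5 and 55.3 CPM in the FSP1-Cre;NT3 tumors. Tumors 13 and 18 were the highest, and tumor 36 lay above tumor 25, so the lines overlapped. The log2 fold change of FSP1-Cre;NT3 over Osx-Cre;NT3 was -0.53 ± 0.28 (adjusted p = 0.474), and -0.28 without tumor 13. Since samples were screened for Cd68 by the authors, its range here is that of the tumors they kept.

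Lyz2 (chr10:117277541-117282272) had 2275, 1315 and 830.0 CPM in Osx-Cre;NT3 tumors 13, 18 and 25, against 677.1, 835.1 and 700.6 CPM for tumors 27, 29 and 36. Tumor 13 stood well above the rest, and tumor 25 was level with trunk tumor 29 of the other line. The log2 fold change between lines was -0.998 ± 0.38, with an unadjusted p of 0.0363 and an adjusted p of 0.458. It was -0.54 without tumor 13. Both perineal tumors were below all 4 trunk tumors, and the log2 fold change between sites was -0.94 ± 0.48 (adjusted p = 0.542), and -0.53 without tumor 13. Lyz2 and its neighbor Lyz1 are near-identical copies, so its reads could have been split between them.

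C1qa, C1qb and C1qc encode the 3 chains of C1q, the recognition unit of the classical complement pathway, and lie side by side within 18.7 kb (chr4:136880145-136898844). C1qa had 424.7, 500.6 and 209.2 CPM in Osx-Cre;NT3 tumors 13, 18 and 25, against 212.2, 184.1 and 278.0 CPM for tumors 27, 29 and 36. C1qb had 497.3, 432.1 and 218.8 CPM in the Osx-Cre;NT3 and 233.6, 209.8 and 290.7 CPM in the FSP1-Cre;NT3 tumors. C1qc had 346.5, 303.8 and 179.8 CPM in the Osx-Cre;NT3 and 170.1, 153.6 and 216.0 CPM in the FSP1-Cre;NT3 tumors. For all 3 genes tumors 13 and 18 were above every FSP1-Cre;NT3 tumor, while tumor 25 lay among them, so that the lines overlapped.

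The log2 fold changes between lines were -0.75 ± 0.36 for C1qa, -0.65 ± 0.33 for C1qb and -0.62 ± 0.29 for C1qc, with adjusted p-values from 0.466 to 0.473. These values depended on single tumors in both directions. Without tumor 13 the changes were -0.66, -0.41 and -0.43, and without tumor 18 they were -0.50, -0.55 and -0.55, with adjusted p-values of at least 0.678 in edgeR. Without tumor 25 the changes were -1.09, -0.97 and -0.90, with adjusted p-values from 0.0730 to 0.0773 in edgeR, and DESeq2 then called all 3 (adjusted p = 0.00102, 0.000572 and 0.00223), as it did Lyz2 (-1.30, adjusted p = 0.000623). In that setting DESeq2 called 22.1% of all its genes (3702), compared with 2.74% when all 6 tumors were used. Within trunk tumors, where tumor 29 was the only FSP1-Cre;NT3 tumor, the changes were -1.05, -0.87 and -0.86 (adjusted p = 1.00 each). Between sites, the changes were -0.43 ± 0.46, -0.38 ± 0.42 and -0.35 ± 0.38. Leaving out 1 tumor gave changes from -0.67 to -0.16, from -0.58 to -0.14 and from -0.55 to -0.14, and they took the opposite sign among FSP1-Cre;NT3 tumors alone (0.40, 0.31 and 0.32).

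C1q chains assemble in equal numbers, and the ratios between their genes were steady. The ratio of C1qc to C1qb per length was between 0.702 and 0.828 in all 6 tumors, and that of C1qa to C1qb between 0.838 and 1.14. The highest ratio of C1qa to C1qb was in tumor 18, the only tumor in which C1qa exceeded C1qb. Against Csf1r, C1qa was 9.28-, 11.2- and 5.20-fold higher in tumors 13, 18 and 25, against 4.07-, 6.11- and 5.11-fold in tumors 27, 29 and 36. The promoter window of C1qb is shown because the 3 genes moved together and it holds the core GAGGAA bound by PU.1, the transcription factor of myeloid cells, which begins 30 bases before the start. It is RefSeq's sequence of build GRCm38.p6, chr4:136886201-136886450, minus strand, 5′ to 3′ along the gene, with the match in capitals.
C1qb: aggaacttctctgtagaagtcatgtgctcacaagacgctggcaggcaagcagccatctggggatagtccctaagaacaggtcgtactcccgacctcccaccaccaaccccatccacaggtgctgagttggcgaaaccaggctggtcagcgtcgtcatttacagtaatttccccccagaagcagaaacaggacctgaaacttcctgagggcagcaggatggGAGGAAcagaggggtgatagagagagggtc
RefSeq windows were used for 7 of the 10 genes, and those of Csf1r, Adgre1 and C1qa were not used here. A GAGGAA on either strand was in 4 of these 7 windows (Cd68, C1qb, C1qc and Mrc1), compared with 23.3% of all 32851 windows. The NF-κB consensus was in 2 of the 7, Csf1 and C1qc.

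Mrc1 and Cd163 followed a different order of tumors. Mrc1 (chr2:14229414-14332023), the mannose receptor CD206, which takes up glycoproteins, had 16.2, 42.5 and 18.8 CPM in Osx-Cre;NT3 tumors 13, 18 and 25, and 114.0, 45.9 and 243.0 CPM in FSP1-Cre;NT3 tumors 27, 29 and 36. All 3 FSP1-Cre;NT3 tumors were above all 3 Osx-Cre;NT3 tumors, but tumor 29, on the trunk, was close to tumor 18. The log2 fold change between lines was 2.38 ± 0.67, with an unadjusted p of 0.00951 and an adjusted p of 0.458 in edgeR. DESeq2 called the difference (adjusted p = 0.0157) and did not do so without tumor 36 (1.61, adjusted p = 0.198) or without tumor 13 (2.11, adjusted p = 0.168). Within trunk tumors the log2 fold change was 0.82 (adjusted p = 1.00).

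Cd163 (chr6:124304651-124330527), the scavenger receptor for hemoglobin bound to haptoglobin, had 2.36, 6.94 and 6.65 CPM in the Osx-Cre;NT3 tumors and 16.2, 5.49 and 59.2 CPM in the FSP1-Cre;NT3 tumors. The lines overlapped, since tumor 29 was below tumors 18 and 25. Between lines the log2 fold change was 2.34 ± 0.88 (unadjusted p = 0.0333, adjusted p = 0.458), and DESeq2 did not call it (adjusted p = 0.0870), but did without tumor 25 (adjusted p = 0.0481) or tumor 29 (adjusted p = 0.00603), with 22.1% and 4.68% of all genes called in these settings. It was 0.038 within trunk tumors and 1.02 without tumor 36.

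By site, the perineal tumors 27 and 36 were above all 4 trunk tumors for both genes. For Mrc1 the means were 178.5 and 30.9 CPM, a log2 fold change of 2.53 ± 0.50 with an unadjusted p of 0.00139 and an adjusted p of 0.263 in edgeR. For Cd163 they were 37.7 and 5.36 CPM, a log2 fold change of 2.81 ± 0.57 with an unadjusted p of 0.00165 and an adjusted p of 0.263. DESeq2 called both, with adjusted p-values of 0.00109 and 0.000952. Both calls rested on tumor 36, without which the log2 fold changes were 1.89 and 1.59 and the adjusted p-values 1.00 in edgeR as in DESeq2. Without tumor 27 edgeR called Cd163 (3.42, adjusted p = 0.0235) but not Mrc1 (2.93, adjusted p = 0.0525). Both perineal tumors were FSP1-Cre;NT3, and among the FSP1-Cre;NT3 tumors alone, with 1 trunk tumor, the log2 fold changes were 1.95 and 2.77 (adjusted p = 0.993 each).

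The windows before the starts of Mrc1 and Cd163 are shown because these 2 genes had the widest range between tumors and the same order of the perineal tumors. Both are RefSeq's sequences of build GRCm38.p6 on the plus strand, 5′ to 3′, chr2:14229164-14229391 and chr6:124304401-124304650, and capitals mark GAGGAA on either strand.
Mrc1: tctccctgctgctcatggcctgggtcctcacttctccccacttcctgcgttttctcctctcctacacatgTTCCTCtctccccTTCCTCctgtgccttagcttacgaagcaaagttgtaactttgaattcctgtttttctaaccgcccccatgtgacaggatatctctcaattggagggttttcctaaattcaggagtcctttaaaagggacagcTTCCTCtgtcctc
Cd163: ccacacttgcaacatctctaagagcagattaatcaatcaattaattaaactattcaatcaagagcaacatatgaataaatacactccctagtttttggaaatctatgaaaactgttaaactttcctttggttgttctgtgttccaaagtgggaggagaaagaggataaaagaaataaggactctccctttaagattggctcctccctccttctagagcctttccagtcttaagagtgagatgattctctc
The Mrc1 window holds 3 matches, which begin 180, 167 and 35 bases before the start, and is printed up to the first base of a GENCODE transcript. The Cd163 window holds none.

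**Figure D2:**
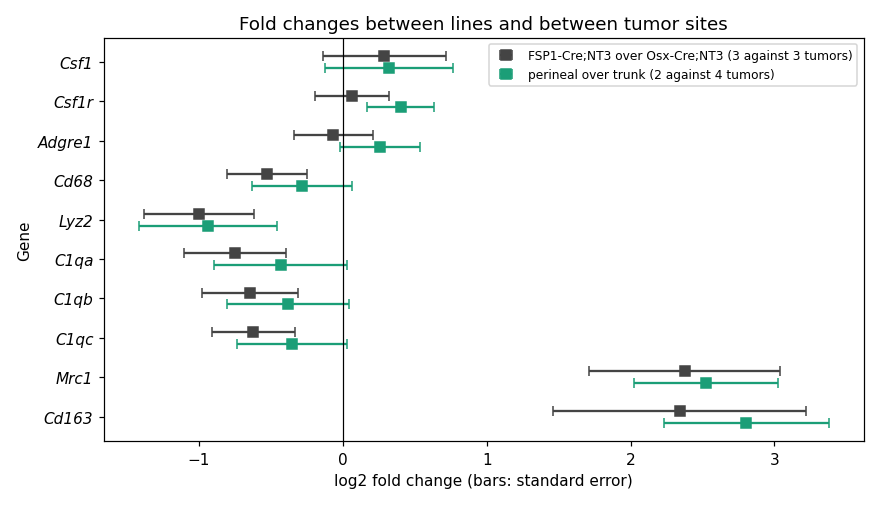
log2 fold change of each gene (horizontal axis) between lines (gray) and between tumor sites (green), with bars for the standard error. Mrc1 and Cd163 lie between 2.34 and 2.81 in both comparisons, Lyz2 near -1, and Csf1, Csf1r and Adgre1 between -0.06 and 0.40.

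Read against all genes, the 10 genes gave the following counts. Between lines, edgeR called 0 of the 10 at an adjusted p of 0.05, as it called 0% of the 16415 genes tested. At an unadjusted p under 0.05 there were 3 of 10 (Lyz2 lower, and Mrc1 and Cd163 higher in FSP1-Cre;NT3 tumors), where 10.8% of all genes (1770) passed. DESeq2 called 1 of 10, Mrc1, and 2.74% of its genes (452). Without tumor 36 it called 0 of 10 and 1.17% of all genes (201). All FSP1-Cre;NT3 tumors were above all Osx-Cre;NT3 tumors for 1 of 10, Mrc1, compared with 9.03% of all genes, and below them for 0 of 10, compared with 7.97%.

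Between sites, edgeR called 0 of 10 and 0% of 16971 genes. At an unadjusted p under 0.05 there were 2 of 10, Mrc1 and Cd163, compared with 10.5% of all genes (1784). DESeq2 called the same 2, compared with 4.1% of its genes (725). Without tumor 36 it called 0 of 10 and 0.0753% of all genes (15). Both perineal tumors were above all trunk tumors for 3 of 10 (Csf1r, Mrc1 and Cd163; 10.3% of all genes) and below them for 1 of 10 (Lyz2; 9.36%). The comparisons of lines and of sites use the same 6 tumors and are not independent.

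Ratios between genes of a tumor do not depend on the scaling between libraries, and 8 were compared between lines with a two-sided exact permutation test over 20 assignments, in which 0.1 is the smallest p possible, so that none could reach 0.05. The ratio of Mrc1 to Cd68 was 0.0361, 0.132 and 0.0758 in tumors 13, 18 and 25, against 0.535, 0.226 and 0.833 in tumors 27, 29 and 36. The groups did not overlap (difference of log2 means 2.71, exact permutation p = 0.1, adjusted p = 0.4). The ratio of Cd163 to Cd68 ranged from 0.00621 in tumor 13 to 0.240 in tumor 36, and the tumors of the lines did not overlap either, although tumor 25 with 0.0317 and tumor 29 with 0.0320 were next to each other (difference 2.37, exact permutation p = 0.1, adjusted p = 0.4).

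The ratio of Adgre1 to Cd68 was from 0.255 to 0.387 in Osx-Cre;NT3 and from 0.366 to 0.501 in FSP1-Cre;NT3 tumors (difference 0.39, exact permutation p = 0.3, adjusted p = 0.48). That of Lyz2 to Cd68 was from 16.8 to 25.4 and from 12.1 to 20.7 (difference -0.38, exact permutation p = 0.3). The ratio of the ligand Csf1 to the receptor Csf1r overlapped between lines (0.166 to 0.587 and 0.266 to 0.538; difference 0.40, exact permutation p = 0.7). The differences for C1qa over Csf1r, C1qa over C1qb and C1qc over C1qb were -0.70, -0.10 and -0.01 (exact permutation p = 0.2, 0.7 and 1).

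**Figure D3:**
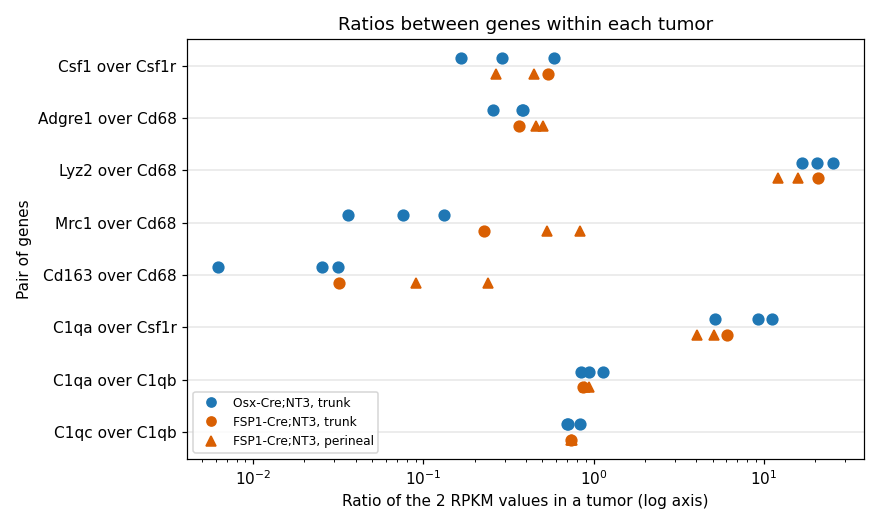
Ratio of the RPKM values of 2 genes in each tumor (horizontal axis, logarithmic) for 8 pairs (vertical axis), with color for line and triangles for perineal tumors. The C1q ratios are tight, and Mrc1 over Cd68 spreads 23.1-fold and Cd163 over Cd68 38.7-fold over the 6 tumors.

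Lists of other macrophage genes were compared in the same way. Of 17 further macrophage markers, 14 had a log2 fold change below 0 between lines and 3 above, with a median of -0.48 where the median of all genes was 0.01. None passed the adjusted threshold in edgeR (0 in DESeq2), and 5 were lower and 0 higher in FSP1-Cre;NT3 tumors at an unadjusted p under 0.05, where 3.47% of all genes were lower and 7.31% higher. Between sites 10 were below 0 and 7 above, with a median of -0.19, and without tumor 36 the medians were -0.61 and -0.31. DESeq2 called 1 of the 17 between sites, where it called 4.1% of all genes. The gene was Itgam, an integrin chain of myeloid cells (1.19 ± 0.26, DESeq2 adjusted p = 0.0175), which was named after its values were seen. Itgam had 52.2 and 91.0 CPM in perineal tumors 27 and 36 and from 27.9 to 34.5 CPM in trunk tumors, and it was not called without tumor 13, 29 or 36. The most abundant were Ctss, a lysosomal protease, with a log2 fold change of -0.67 ± 0.37 between lines, Tyrobp, a signaling adaptor, with -1.06 ± 0.37, and Trem2, a lipid receptor that signals through that adaptor, with -1.59 ± 0.61. Trem2 had 265 and 335 CPM in tumors 13 and 18, against 85.4, 117, 77.5 and 33.2 CPM in tumors 25, 27, 29 and 36, with tumor 36 the lowest. Of 10 lysosome genes, 9 were below 0 with a median of -0.45. Among them, Ctsd had -0.98 ± 0.32, Ctsz -0.79 ± 0.21 and Lamp1 -0.36 ± 0.21, and DESeq2 called 1, Ctsz (adjusted p = 0.0367), where it called 2.74% of all genes. With 1 tumor left out, DESeq2 called Ctsz without tumor 25 and in no other case (adjusted p = 0.264 without tumor 36). Without tumor 36 the median of the list was -0.69. Lysosome genes are used by most cells and are not particular to macrophages.

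The 12 genes of resident macrophages were all above 0 between lines, with a median log2 fold change of 1.02, and all above 0 between sites, with a median of 1.49 where that of all genes was -0.02. Without tumor 36 all 12 remained above 0 in both comparisons, with medians of 0.66 and 1.04. At an unadjusted p under 0.05, 4 were higher in FSP1-Cre;NT3 tumors, where 7.31% of all genes were, and 5 in perineal tumors, where 8.88% were. In the other direction there were 0, compared with 3.47% and 1.63% of all genes, and there were 0 in either direction at an adjusted p of 0.05 with edgeR. DESeq2 called 0 between lines and 1 between sites (4.1% of all genes), the chemokine gene Ccl24, which was chosen after its values were seen. Ccl24 had 20.9 CPM in tumor 36, 2.89 CPM in tumor 27 and from 0.128 to 1.09 CPM in trunk tumors, and the call was lost without tumor 36 (2.61, adjusted p = 1.00). The most abundant were Gas6, a ligand of receptors for apoptotic cells, with a log2 fold change of 0.63 ± 0.23 between lines, the chemokine Pf4 with 0.62 ± 0.59, and the lectin Mgl2 with 0.98 ± 0.74. The summed level of the 12 genes was from 363 to 420 CPM in Osx-Cre;NT3, 533 CPM in tumor 29, and 715 and 677 CPM in tumors 27 and 36. Of these sums Gas6 alone made up from 200 to 269 CPM in Osx-Cre;NT3 tumors and 324 CPM in tumor 29. In tumors 27 and 36 Gas6 made up 435 and 306 CPM. Which cells of the tumors held the Gas6 RNA was not tested. Stab1 added from 48.3 to 139 CPM per tumor. All FSP1-Cre;NT3 tumors were above all Osx-Cre;NT3 tumors for 2 of the 12, compared with 9.03% of all genes. Both perineal tumors were above all trunk tumors for 5 of the 12, compared with 10.3% of all genes. In trunk tumor 18 Mgl2 had 34.5 CPM, close to the 32.7 CPM of tumor 27. Cd209a and Cd209f, named after their values were seen, were highest in tumor 18, with 9.60 and 5.63 CPM. The genes of this list thus did not all follow the line or the site.

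The 8 transcription factors of macrophages had a median of 0.22 between lines and 0.45 between sites, and of -0.015 and 0.11 without tumor 36. Spi1, which encodes PU.1, was lowest in tumor 29 (18.2 CPM) and highest in tumor 13 (36.5 CPM), with a log2 fold change of -0.07 ± 0.35 between lines, Irf8 from 37.6 to 71.1 CPM and Cebpa, which epithelial cells and fat cells also use, from 176 to 413 CPM. Of 8 genes of inflammatory activation, 4 were above 0 between lines and 6 between sites, and Il1b, the most abundant, had 54.2 and 55.0 CPM in the perineal tumors, 37.0 CPM in tumor 18 and from 3.97 to 9.07 CPM in the remaining trunk tumors. DESeq2 called 2 of the 8 between sites (4.1% of all genes), the cytokine gene Il6 (2.88 ± 0.70, adjusted p = 0.00720) and Fpr2, a formyl peptide receptor (2.89 ± 0.81, adjusted p = 0.0245), which were named after their values were seen. Both were at most 3.88 CPM, and neither was called without tumor 36. The Il6 call was also lost without tumor 27, and that of Fpr2 without tumor 13, 25 or 29. Cd80 and Tnf, the next to Il1b in abundance, had log2 fold changes of -0.33 ± 0.34 and -0.11 ± 0.46 between lines. Of 7 genes of alternative activation, 6 could be tested and 5 were above 0 in either comparison. Without tumor 36, 2 were above 0 between lines and 6 between sites. Arg1, chosen after its values were seen, had 1.04, 1.83 and 4.0 CPM in tumors 13, 18 and 25, and 3.32, 1.26 and 15.2 CPM in tumors 27, 29 and 36, so that trunk tumor 25 was above perineal tumor 27. The most abundant of that list were Il4ra, Retnla and Msr1, with log2 fold changes of -0.02 ± 0.29, 0.49 ± 0.99 and 0.25 ± 0.44 between lines. Of 10 osteoclast genes, 9 could be tested and 4 were above 0 between lines. Among them Ctsk, Acp5 and Tnfrsf11a, which encodes the RANK receptor, had log2 fold changes of 0.39 ± 0.52, -0.32 ± 0.43 and -0.13 ± 0.33. The gene of that list that DESeq2 called was Dcstamp, which encodes a protein needed for fusion of macrophages and osteoclasts and was chosen after its values were seen. Dcstamp had 12.0, 13.8 and 11.3 CPM in the Osx-Cre;NT3 and 0.890, 0.462 and 0.938 CPM in the FSP1-Cre;NT3 tumors. The log2 fold change was -4.01 ± 0.40, with an adjusted p of 0.359 in edgeR. DESeq2 called it between lines, where it called 2.74% of all genes, and kept the call whichever tumor was left out. Without tumors 25, 29 and 36 it called 22.1%, 4.68% and 1.17% of all genes. Between sites DESeq2 also called Dcstamp, lower in perineal tumors (-3.36 ± 1.22, DESeq2 adjusted p = 0.0157), where it called 4.1% of all genes. With 1 tumor left out, that call remained only without tumor 29.

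The other genes of the classical complement pathway and its receptors lay mostly above 0. Of 9 genes, 7 were above 0 between lines, with a median of 1.37, and 8 between sites, with a median of 1.32. Serping1, the inhibitor of the C1 complex, had a log2 fold change of 1.52 ± 0.49 between lines, C3 1.70 ± 0.47 and C1s1, a protease of the C1 complex, 1.25 ± 0.53. C3 had 102, 106 and 61.4 CPM in Osx-Cre;NT3 and 297, 130 and 452 CPM in FSP1-Cre;NT3 tumors. All FSP1-Cre;NT3 tumors were thus above all Osx-Cre;NT3 tumors, as was the case for 9.03% of all genes. C3 was 1 of 2 genes of the list that DESeq2 called between lines (adjusted p = 0.0330), where it called 2.74% of all genes. The other was C4b (adjusted p = 0.0101), named after its values were seen. Between sites DESeq2 called the same 2 genes, where it called 4.1% of all genes. Without tumor 36 it called neither gene in either comparison, and the medians of the list were 1.15 and 0.97. Between lines both calls were also lost without tumor 13, and that of C3 without tumor 27. edgeR called 0 of the 9 in either comparison. The difference of direction between these genes and C1q was not tested.

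**Figure D4:**
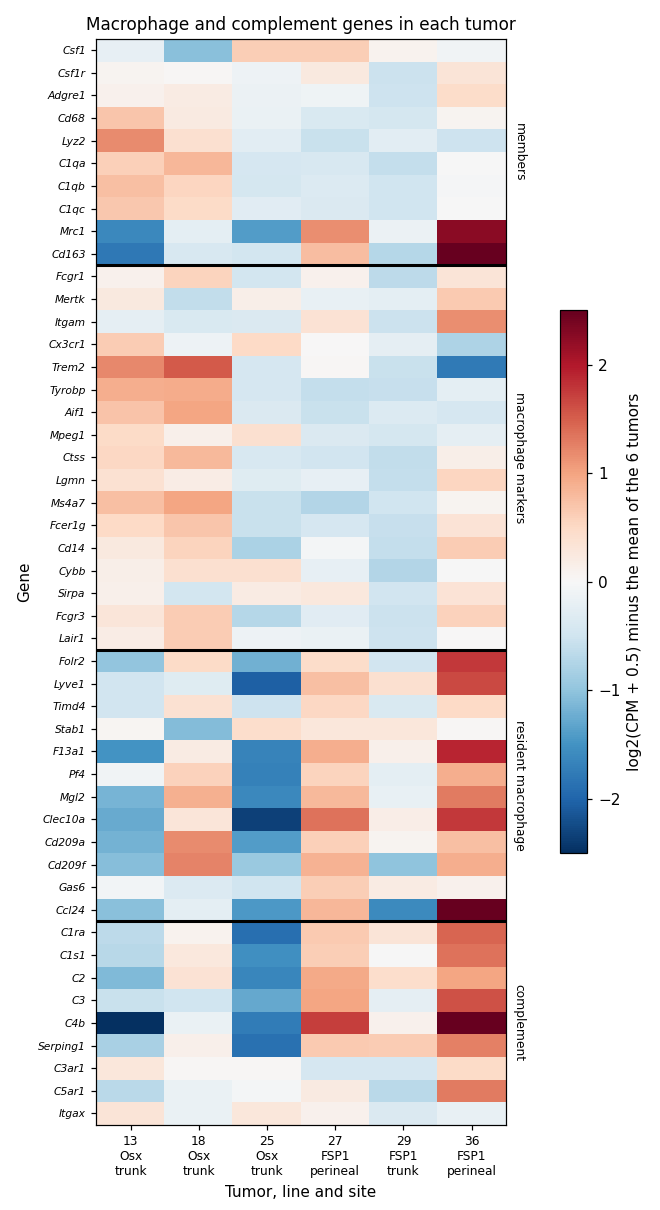
log2(CPM + 0.5) of each gene minus its mean over the 6 tumors (color, limited to 2.5 in either direction) for the 10 genes, further macrophage markers, resident macrophage genes and classical complement genes (rows) in the 6 tumors (columns). The C1q genes, Tyrobp and Trem2 are high in tumors 13 and 18, and Mrc1, Cd163 and most resident macrophage and complement genes in tumors 27 and 36.

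Markers of other cells also differed between these tumors. The summed level of 7 mast cell genes was from 16.5 to 80.3 CPM in Osx-Cre;NT3 and from 295 to 370 CPM in FSP1-Cre;NT3 tumors, without overlap. Fibroblast genes, of which 7 of 8 were above 0 between lines, summed to 5261 to 6878 CPM and 11751 to 15189 CPM. Endothelial and lymphatic genes summed to 149 to 388 CPM and 415 to 562 CPM, with 10 of 11 above 0. Of all 16415 genes, 8385 were above 0. All FSP1-Cre;NT3 tumors were above all Osx-Cre;NT3 tumors for 7 of 7 mast cell, 7 of 8 fibroblast and 6 of 11 endothelial and lymphatic genes. The share of all genes was 9.03%. edgeR called 0 of these genes between lines. DESeq2 called 5, 4 and 3, where it called 2.74% of all genes. Without tumor 36 it called 2 of each list and 1.17% of all genes. Mrc1, Lyve1 and Stab1 are expressed by lymphatic or sinusoidal endothelium as well as by macrophages. The 10 neutrophil genes found summed to 466 CPM in tumor 36, 152 CPM in tumor 27 and at most 58.3 CPM in trunk tumors. Of these sums S100a8 and S100a9 made up 434 CPM in tumor 36, 134 CPM in tumor 27 and at most 48.9 CPM in trunk tumors. All 9 neutrophil genes that could be tested were above 0 between sites, with a median log2 fold change of 1.63. DESeq2 called 4 of them, where it called 4.1% of all genes. Without tumor 36, 6 of the 9 were above 0 and 0 of these calls remained. Retnlg and Cxcr2, among the 4 and named after their values were seen, had 3.26 ± 0.70 and 1.63 ± 0.42. Mpo, Camp and Mmp8, named after their values were seen, had log2 fold changes of 0.17 ± 0.56, 0.12 ± 1.35 and 0.0023 ± 0.37 between sites. The neutrophil elastase gene Elane, named after its values were seen, was at 0 counts in 5 of the 6 tumors. The 4 adipocyte genes summed to 123 and 34.3 CPM in tumors 36 and 27 and to at most 12.5 CPM in trunk tumors. Both perineal tumors were above all trunk tumors for all 4, compared with 10.3% of all genes. DESeq2 called all 4 between sites, where it called 4.1% of all genes, and 0 of them without tumor 36. The 7 monocyte genes summed to 813 CPM in tumor 36, of which Plac8 made up 595 CPM, and 167 CPM in tumor 27, with at most 137 CPM in trunk tumors. edgeR called 0 of them between sites. DESeq2 called 2, Plac8 and Nr4a1, the latter named after its values were seen, where it called 4.1% of all genes. Of the 7 genes, 6 were above 0 between sites and 1 was below. Both perineal tumors were above all trunk tumors for 3 of the 7, compared with 10.3% of all genes. Ccr2 had 58.8 CPM in trunk tumor 18, and 47.9 and 77.3 CPM in tumors 27 and 36. Ly6c2, named after its values were seen, was highest in trunk tumor 18 (12.0 CPM), against 4.02 and 7.72 CPM in tumors 27 and 36. Without tumor 36 DESeq2 kept Nr4a1 (2.42, adjusted p = 6.57e-06) but not Plac8 (0.14), where it called 0.0753% of all genes. The part of these cells in the differences of Mrc1 and Cd163 was not tested.

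Lists of general leukocyte, T cell and dendritic cell genes overlapped between lines. The 4 leukocyte genes summed to 324 to 510 CPM in Osx-Cre;NT3 and 293 to 509 CPM in FSP1-Cre;NT3 tumors, and their median log2 fold change was -0.01. The 7 T cell genes summed to 58.5 to 195 CPM and 72.2 to 140 CPM, with a median of -0.21. The 8 dendritic cell genes summed to 53.2 to 80.3 CPM and 41.6 to 70.4 CPM, with a median of -0.28, and the 4 B cell genes to at most 15.9 CPM in any tumor. The 4 basal keratinocyte genes had a median of -0.33. Without tumor 36 the medians of the leukocyte, T cell, dendritic cell and keratinocyte genes were -0.17, -0.22, -0.19 and -0.029.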

How the data were processed

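RNA from 6 tumors was sequenced by the authors, and the labels give each tumor's line and site. The paper's methods name trimming, HISAT2 alignment to mm10 and featureCounts, while the submitters' processing notes name bcl2fastq, TopHat2 2.0.6 and HTSeq. The annotation and strandedness are not given in the sources used here. The authors deposited raw counts per gene, all even numbers, and RPKM, whose library totals exceed the summed counts on genes. Counts were filtered with filterByExpr, scaled by TMM and tested with edgeR 4.0.16 (glmQLFit, glmQLFTest, Benjamini-Hochberg over all genes tested) in R 4.3.3, with no covariate. DESeq2 1.42.0 was an alternative. log2 CPM had a prior count of 2. Ratios used RPKM and exact permutation in SciPy 1.17.1. The code was tested on simulated data. The 10 genes and 21 further lists (166 of 167 symbols found, 3 of them under older symbols) were chosen with earlier results of these data known. Named genes are the 10, the other colony stimulating factors and receptors, the 5 nearest genes of Csf1r and Csf1, and of each list those passing edgeR's adjusted threshold or the up to 3 most abundant. Others are marked as named after their values were seen. Alternatives were other scalings and filters, counts halved, the other factor as covariate, and leaving out each tumor. DESeq2 without each tumor was added after seeing the data. Tumors are separate animals. SD is over tumors, and the floor of 3 counts covers counting error only. SE is the absolute log2 fold change divided by the square root of edgeR's quasi-likelihood F statistic. It rests on the fitted model, which shares information on variability between genes.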

Additional observations from a re-analysis of the deposited data

Results flagged for a closer look

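Of 36 results examined for an outlying tumor (the 10 genes and 8 ratios, over all 6 tumors and over the 4 trunk tumors), 3 were past Dixon's critical value, where chance gives about 1 in 20. The log2 ratio of C1qa to C1qb was 0.19 in tumor 18, with the next tumor at -0.09. Among trunk tumors, tumor 13 was lowest in the log2 ratio of Adgre1 to Cd68, with -1.97 against -1.45 for the next, and in that of Cd163 to Cd68, with -7.33 against -5.30. Cd68, the denominator of both, was highest in tumor 13.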

How the results depend on the processing

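No paired analysis was possible because the mouse numbers of the lines are not shared. The cause of the changes below was not tested. edgeR called 0 genes between lines in every setting and, between sites, from 0 to 567 when 1 tumor was left out (2 without tumor 25, 567 without tumor 27) and 0 in the other settings. DESeq2 called 452 genes between lines, and 262, 562, 3702, 555, 826 and 201 without tumors 13, 18, 25, 27, 29 and 36. Between sites it called 725, and 397, 752, 755, 1539, 826 and 15 without the same tumors. Without tumor 29 both comparisons set the same tumors against each other. In edgeR no log2 fold change of the 10 genes passed the threshold in any setting except Cd163 between sites without tumor 27 (3.42).

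The sign turned only for small changes. Between lines, leaving out 1 tumor gave from -0.039 to 0.76 for Csf1, from -0.083 to 0.26 for Csf1r and from -0.37 to 0.11 for Adgre1. Csf1r was -0.53 with site as covariate and -0.54 in trunk tumors, and Adgre1 0.044 with library sizes alone. Between sites, leaving out 1 tumor gave from -0.087 to 0.63 for Csf1 and from -0.054 to 0.48 for Adgre1. With line as covariate, Cd68, C1qa, C1qb and C1qc were 0.31, 0.41, 0.32 and 0.32, and among FSP1-Cre;NT3 tumors alone 0.30, 0.40, 0.31 and 0.32. With DESeq2 and 1 tumor left out, turned values between lines were -0.049 for Csf1 (tumor 18), -0.011, -0.045 and -0.11 for Csf1r (tumors 25, 27 and 36) and 0.12 for Adgre1 (tumor 29), and between sites -0.067 for Csf1 (tumor 27) and -0.086 for Adgre1 (tumor 36). The difference between lines in log2 ratios ranged, without 1 tumor, from -0.044 to 0.87 for Csf1 over Csf1r, from -0.20 to 0.016 for C1qa over C1qb and from -0.049 to 0.069 for C1qc over C1qb, and the other 5 ratios kept their sign. Depth limited none of these values, since 3 counts were at most 0.0579 CPM.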
